A study of Mus musculus with 10 samples.

Results

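Trim28, Setdb1, Cbx1, Cbx3, Cbx5, Suv39h2, Ehmt1, Ehmt2 and Daxx are 9 of the 21938 protein-coding genes that GENCODE M21 annotates on the mouse chromosomes, and they form a group because their proteins build heterochromatin and silence retroelements. Their chromatin was read in F123, a line of mouse embryonic stem cells derived from a Mus musculus castaneus × S129/SvJae F1 hybrid. The cells were kept with leukemia inhibitory factor at 1000 U/ml on irradiated CF1 mouse embryonic fibroblast feeders and were passaged once without feeders before harvest, and no treatment or genotype was compared. Both kinds of peak list are used: ChIP-seq of H3K4me3 (2 replicates, 2000000 fixed cells in each) and ATAC-seq (2 replicates, 100000 cells in each). H3K4me3 is the trimethylated form of lysine 4 of histone H3, which marks active and poised promoters, and ATAC-seq maps DNA that a transposase can reach.

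Each assay is represented by 1 peak list for both replicates, with 33487 H3K4me3 peaks and 179109 ATAC-seq peaks. The lists hold no read counts, so the depth is unknown, no value has a spread between replicates, and none of the differences below could be tested. A peak count therefore says where the authors' caller placed a peak, not how much a gene was transcribed. F123 carries 2 parental genomes, and the lists do not separate them. Of 7 stem cell markers fixed for a check of the cell type, 6 had an H3K4me3 peak within 2 Kb of the start, with a median width of 5302 bp. The exception was Esrrb, which had 12 H3K4me3 peaks in its body. Of 7 fibroblast markers, 4 had a peak at the start, with a median width of 2241 bp, and Col3a1, Postn and Lum had none. The share over all protein-coding genes was 66.4%. ATAC-seq peaks lay at the start of 7 stem cell markers and 6 fibroblast markers, against 74.6% of protein-coding genes, so that assay hardly separated them. The part of feeder cells in the peaks of the 9 genes was not tested.

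Most retroelements in embryonic stem cells are kept silent by methylation of lysine 9 of histone H3. KRAB zinc finger proteins bind the elements and recruit TRIM28, which brings in the methyltransferase SETDB1, and the mark is bound by the HP1 proteins, of which Cbx1, Cbx3 and Cbx5 encode the beta, gamma and alpha forms. SUV39H2 methylates the same residue at pericentromeric repeats, EHMT1 and EHMT2 (also called GLP and G9a) form a heterodimer that adds mono- and dimethylation in euchromatin, and DAXX deposits histone H3.3 at repeats and telomeres together with ATRX.

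The promoters of these genes were CpG-rich, and 6 upstream sequences are shown because the widest, the narrowest, the divergent and the internal promoters among them differ in this respect. They are from mm10, read 5′ to 3′ on the strand of the gene, and end where the annotated transcript begins, except for Cbx5, where the run ends 36 bases further upstream, before the RefSeq exon. Capitals mark every CpG. The genes and positions are:
Trim28 coding start, chr7:13023902-13024151, plus strand: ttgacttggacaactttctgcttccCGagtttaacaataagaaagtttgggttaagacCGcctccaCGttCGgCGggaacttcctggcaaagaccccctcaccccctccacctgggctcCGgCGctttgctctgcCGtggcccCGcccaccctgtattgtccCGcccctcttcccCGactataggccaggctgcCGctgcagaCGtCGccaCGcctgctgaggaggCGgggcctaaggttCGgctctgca
Setdb1, chr3:95357203-95357452, minus strand: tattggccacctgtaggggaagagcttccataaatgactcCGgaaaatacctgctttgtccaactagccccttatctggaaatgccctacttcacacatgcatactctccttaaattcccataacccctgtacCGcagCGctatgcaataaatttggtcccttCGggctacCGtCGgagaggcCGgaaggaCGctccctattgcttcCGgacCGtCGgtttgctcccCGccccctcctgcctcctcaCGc
Cbx3, chr6:51470110-51470359, plus strand: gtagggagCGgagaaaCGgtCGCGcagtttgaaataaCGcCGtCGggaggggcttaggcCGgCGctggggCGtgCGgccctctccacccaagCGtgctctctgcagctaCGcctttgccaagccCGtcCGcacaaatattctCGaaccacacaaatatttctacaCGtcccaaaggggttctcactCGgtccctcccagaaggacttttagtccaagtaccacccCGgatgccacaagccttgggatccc
Cbx5, chr15:103239853-103240102, minus strand: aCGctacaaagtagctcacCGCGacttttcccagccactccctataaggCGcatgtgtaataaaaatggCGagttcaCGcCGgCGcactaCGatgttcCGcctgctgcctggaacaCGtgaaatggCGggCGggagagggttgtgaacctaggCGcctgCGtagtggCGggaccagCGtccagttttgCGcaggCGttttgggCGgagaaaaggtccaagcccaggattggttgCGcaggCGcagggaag
Cbx5 internal starts, chr15:103215367-103215616, minus strand: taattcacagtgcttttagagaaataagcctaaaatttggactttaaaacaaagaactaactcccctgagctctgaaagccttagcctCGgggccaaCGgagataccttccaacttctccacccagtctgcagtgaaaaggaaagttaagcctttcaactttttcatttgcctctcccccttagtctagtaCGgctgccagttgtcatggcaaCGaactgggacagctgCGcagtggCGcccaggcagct
Daxx, chr17:33909179-33909413, plus strand: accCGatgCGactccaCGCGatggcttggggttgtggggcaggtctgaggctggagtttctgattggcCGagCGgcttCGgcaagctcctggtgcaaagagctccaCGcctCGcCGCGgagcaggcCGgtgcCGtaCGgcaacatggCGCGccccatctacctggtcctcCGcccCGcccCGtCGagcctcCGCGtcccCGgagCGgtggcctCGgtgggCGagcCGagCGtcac

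The Cbx3 run held 19 CpGs in 250 bases and the Cbx5 run 22, and both lay wholly within H3K4me3 and ATAC-seq peaks. The Setdb1 run held 13, and the run before the internal starts of Cbx5 held 6. The 235 bases before Daxx held 28 CpGs, with 70.6% G and C, the densest of the 6. The Trim28 run held 17. Of the runs not shown, those of Suv39h2 and Ehmt1 held 25 each, that of Ehmt2 16 and that of Cbx1 14, with 49.2% G and C. Cbx1, with a peak of 4114 bp, thus held nearly as few as Setdb1, and Ehmt2 held fewer than Cbx3 and Cbx5, though its peak also covers a divergent start.

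Taking the start of a gene as the 5′ end of its GENCODE record, 8 of the 9 genes had an H3K4me3 peak within 2 Kb of the start, against 66.4% of all protein-coding genes (95% Wilson interval 65.8 to 67.1%, counting error only). An ATAC-seq peak lay within 2 Kb of the start in 9 of 9, against 74.6%. Both were present in 8 of 9, against 65.9%. In the same 8 genes both peaks covered the first base of the gene, against 57.3% of all protein-coding genes. The exception was Trim28, and with every annotated transcript start allowed, 9 of 9 had an H3K4me3 peak, against 69.6%. With so few genes and backgrounds this high, the counts describe the 9 genes and do not set them apart.

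**Figure D1:**
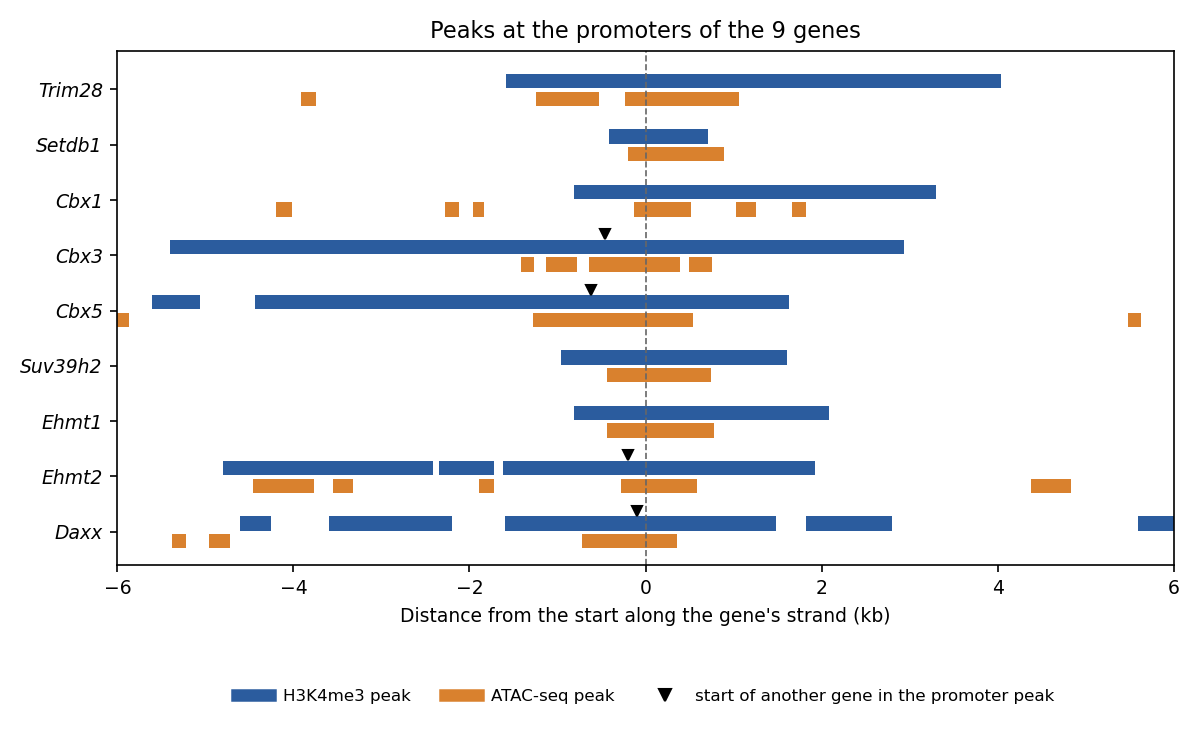
H3K4me3 peaks (blue) and ATAC-seq peaks (orange) within 6 Kb of the start of each gene, drawn along the gene's strand with the start at 0. Trim28 is drawn at the start of its coding transcript, and triangles mark the start of another gene inside the promoter peak. An ATAC-seq peak covers the start in each of the 9 promoters, and the H3K4me3 peak runs from 1134 bp in Setdb1 to 8334 bp in Cbx3.

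Trim28, the corepressor that links KRAB zinc finger proteins to SETDB1, was marked at its coding start, which lies 25038 bp inside the annotated gene. Its record (mm10, chr7:12999114-13031035, plus strand) begins at a non-coding transcript outside the basic GENCODE set, where no H3K4me3 peak lay within 2 Kb and the ATAC-seq peak of 204 bp covered the start of the neighbor Slc27a5. The protein-coding transcript begins at position 13024152, as in RefSeq. That start lay under an H3K4me3 peak of 5622 bp with a fold enrichment of 44.3, which is the peak's signal over the background of the caller. This peak was wider than 98.4% of the 14576 promoter peaks of protein-coding genes and reached 4041 bp into the gene but 1580 bp upstream. An ATAC-seq peak of 1297 bp covered the coding start, and a second of 719 bp lay upstream in the same H3K4me3 peak. All values for Trim28 below are at the coding start unless the gene record is named.

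Setdb1, which encodes the methyltransferase that TRIM28 recruits, was at the other end of the range. Its H3K4me3 peak (chr3:95356487-95357620) spanned 1134 bp at a fold enrichment of 8.04. Both values were the lowest of the 9 genes. The peak was narrower than those of 12921 of the 14576 protein-coding promoters, and 12686 promoters had a peak that was both wider and of higher fold enrichment. The gene's ATAC-seq peak was 1087 bp wide, which equals the median of the 9 genes. It exceeds 96.5% of the ATAC-seq list but lies within the quartiles of 689 and 1130 bp at marked protein-coding starts. ATAC-seq peaks covered 80.2% of the Setdb1 H3K4me3 peak, against 21.7 to 46.0% in the other 8 promoters and a median of 45.4% over protein-coding promoters. That percentage has the H3K4me3 width as its base, so a narrow H3K4me3 peak raises it. By its own width the ATAC-seq peak of Setdb1 was not narrow, while the gene's H3K4me3 values were low. The nearest other H3K4me3 peak was 38219 bp away, the largest such gap of the 9.

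The 3 HP1 genes were among the 4 with the widest promoter peaks as called, next to Trim28. With peaks under 1 Kb apart joined, Cbx1 stayed at 4114 bp and was narrower than Daxx at 7408 bp and Ehmt2 at 6734 bp. Cbx3, which encodes HP1 gamma, lay under a peak of 8334 bp with a fold enrichment of 55.2 (chr6:51464962-51473295), the 24th widest of the 33487 peaks in the list. Of the protein-coding promoters, 26 had a wider peak and 551 one of higher fold enrichment, and 0 had both. The same peak covered the start of Hnrnpa2b1, a splicing factor gene on the other strand, 466 bp from the start of Cbx3. This pair of divergent housekeeping genes is known as the source of a ubiquitous chromatin opening element used in expression vectors. The peak extended 5398 bp over the Hnrnpa2b1 side and 2935 bp into Cbx3, and held 4 ATAC-seq peaks.

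Cbx5, the HP1 alpha gene, had a peak of 6066 bp with a fold enrichment of 34.4 (chr15:103238190-103244255). It too covered the start of a divergent ribonucleoprotein gene, Hnrnpa1, with 615 bases between the starts. A single ATAC-seq peak of 1811 bp, wider than 99.8% of the list, spanned both starts. As at Cbx3, the larger part of the H3K4me3 peak lay upstream, 4439 bp against 1626 bp on the Cbx5 side. A second H3K4me3 peak, 2714 bp wide with a fold enrichment of 11.03, was centered 24514 bp inside the gene (chr15:103213946-103216659) over 3 annotated protein-coding transcript starts between positions 103215305 and 103215366. An ATAC-seq peak of 801 bp covered the same internal starts. The upstream sequence of this internal promoter is the CpG-poor run shown above.

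Cbx1, the HP1 beta gene, shared its promoter peak with no other annotated start. It spanned 4114 bp at a fold enrichment of 36.2 (chr11:96788316-96792429) and was asymmetric in the other direction, with 3302 bp inside the gene and 811 bp upstream. Its ATAC-seq peak of 639 bp was the narrowest at the 9 promoters, and 2 further ATAC-seq peaks of 222 and 149 bp lay downstream in the same H3K4me3 peak. The width of the HP1 peaks thus lay upstream in Cbx3 and Cbx5, where another gene begins, and inside the gene in Cbx1.

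Suv39h2 and Ehmt1, which encode other methyltransferases, had promoter peak widths closer to the protein-coding median of 2147 bp. Their fold enrichments were higher than those of 81.4% and 75.8% of protein-coding promoter peaks. Suv39h2 had a peak of 2564 bp (chr2:3473424-3475987) with a fold enrichment of 42.9, wider than 66.4% of protein-coding promoter peaks. The peak of Ehmt1 was 2898 bp (chr2:24917532-24920429) at a fold enrichment of 40.2. It was wider than 76.1% of protein-coding promoter peaks, just above their upper quartile of 2849 bp. Its −log10 q of 961 was the highest of the 9. Each had 1 ATAC-seq peak at the start, of 1179 bp in Suv39h2 and 1214 bp in Ehmt1.

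Ehmt2 had a promoter peak of 3553 bp with a fold enrichment of 50.0 (chr17:34896847-34900399), second in fold enrichment to Cbx3. It covered a start of the complement gene C2 on the other strand, 204 bp away, which comes from a non-coding transcript of C2. Only 96 bp separated it from a weak H3K4me3 peak of 623 bp with a fold enrichment of 2.89, and a stronger peak of 2392 bp with a fold enrichment of 42.1 followed further upstream. A total of 18 H3K4me3 peaks lay within 100 Kb of the Ehmt2 start, against 6 for Ehmt1. With peaks under 1 Kb apart joined, the Ehmt2 peak grew to 6734 bp and that of Ehmt1 stayed at 2898 bp.

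Daxx, the H3.3 chaperone gene, had a promoter peak of 3073 bp with a fold enrichment of 40.4 (chr17:33907821-33910893). It was the most symmetric of the 9, with 51.9% of its length upstream of the start, and covered the start of the divergent long non-coding RNA BC051226 at a distance of 97 bp. One ATAC-seq peak of 1087 bp spanned both starts. A weak H3K4me3 peak of 977 bp with a fold enrichment of 3.56 followed 340 bp downstream and overlapped no ATAC-seq peak. Daxx lay in the densest of the 9 neighborhoods, with 23 H3K4me3 peaks within 100 Kb, of which 3 were wider than its own, and joining peaks under 1 Kb apart widened it to 7408 bp.

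**Figure D2:**
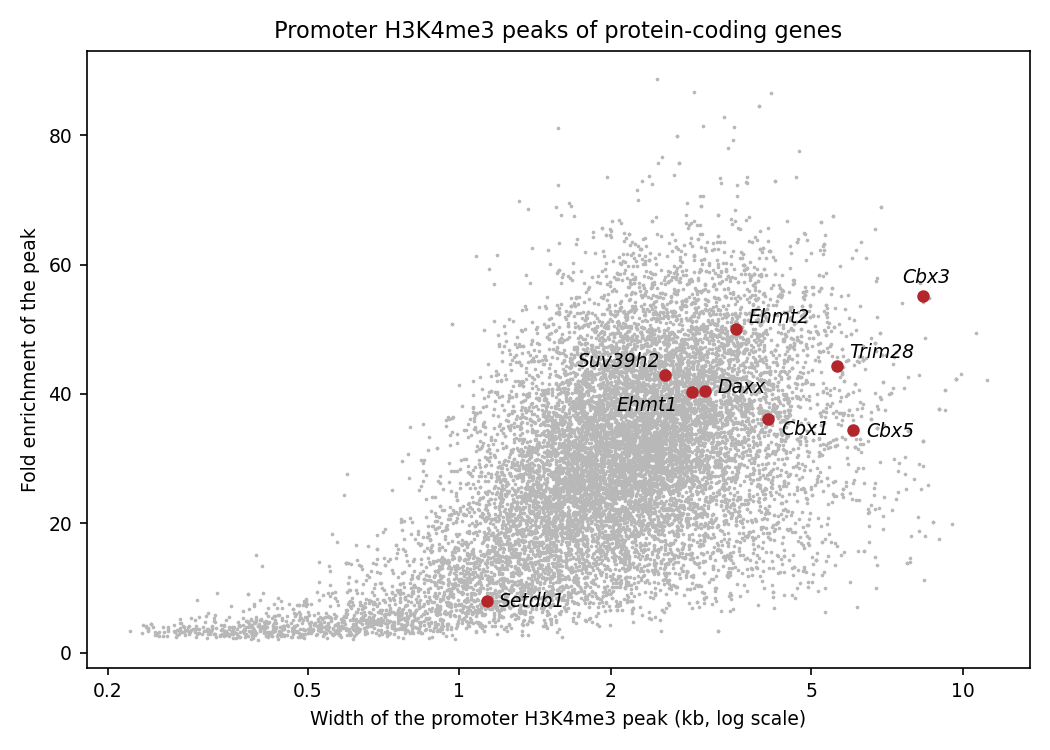
Fold enrichment of the promoter H3K4me3 peak against its width (log scale) for 14576 protein-coding genes (grey points), with the 9 genes in red. Setdb1 is at the lower left at 1134 bp and 8.04, Cbx3 at the upper right at 8334 bp and 55.2, and the other 7 lie between 2564 and 6066 bp.

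Over the 8 genes with a peak at the gene record, the median width was 3313 bp, against 2147 bp over the 14576 protein-coding promoter peaks (quartiles 1562 and 2849 bp). With the Trim28 coding start as a ninth it was 3553 bp. Of the 8 peaks, 7 were wider than the protein-coding median and 6 wider than the upper quartile, and the median gene was wider than 84.1% of the promoters. The median fold enrichment of the 8 was 40.3, against 30.3, with 7 above it, so Setdb1 was the exception in both measures. Cbx3 was highest and Setdb1 lowest of the 9 in both measures, while others differed between them: Cbx5 ranked 160th of 33487 in width and 5405th in fold enrichment, and Ehmt2 1760th in width and 1103rd in fold enrichment. Within 100 Kb, the promoter peak was the widest H3K4me3 peak in 6 of these 8 genes, against 40.0% of protein-coding promoters, and the exceptions were Setdb1 and Daxx, each at rank 4 in its neighborhood.

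Starts of other genes lay inside 4 of these 8 promoter peaks, those of Cbx3, Cbx5, Ehmt2 and Daxx, against 30.8% of protein-coding promoter peaks. For gene record starts of other protein-coding genes the count was 3 of 8, against 18.6%, with the non-coding C2 transcript at Ehmt2 included. In all 4 cases the other gene ran on the opposite strand. Promoter peaks that hold another protein-coding start were wider in general, with a median of 2630 bp over 2706 genes against 2016 bp over the 11870 without one. Compared with such shared peaks alone, Cbx3 was wider than 99.4%, Cbx5 than 98.2% and Ehmt2 than 80.3%. If Ehmt2 is set against the peaks without another protein-coding start instead, it was wider than 89.6% of them. Among the genes with no other start in the peak, Trim28 was wider than 98.6% of the peaks without another protein-coding start, Cbx1 than 94.2%, Ehmt1 than 79.4%, Suv39h2 than 70.9% and Setdb1 than 13.4%. Daxx, whose peak holds a non-coding start, was wider than 83% of them. That comparison set can itself include peaks with starts of non-coding genes.

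The summit of the H3K4me3 peak lay downstream of the start, between 204 and 281 bp, in 5 of the 9 promoters (Cbx1, Suv39h2, Ehmt1, Ehmt2 and Daxx), within the quartiles of 133 and 338 bp found over the 13408 protein-coding promoters whose peak covers the start. Trim28 had it 772 bp downstream. In the remaining 3 the summit was upstream, at -740 bp in Cbx3, -853 bp in Cbx5 and -214 bp in Setdb1 relative to the start. For Cbx3 and Cbx5 these positions lie beyond the start of the divergent neighbor. The centers of the ATAC-seq peaks lay between -371 bp in Cbx5 and 414 bp in Trim28, and their median width of 1087 bp compares with 902 bp at marked protein-coding starts.

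**Figure D3:**
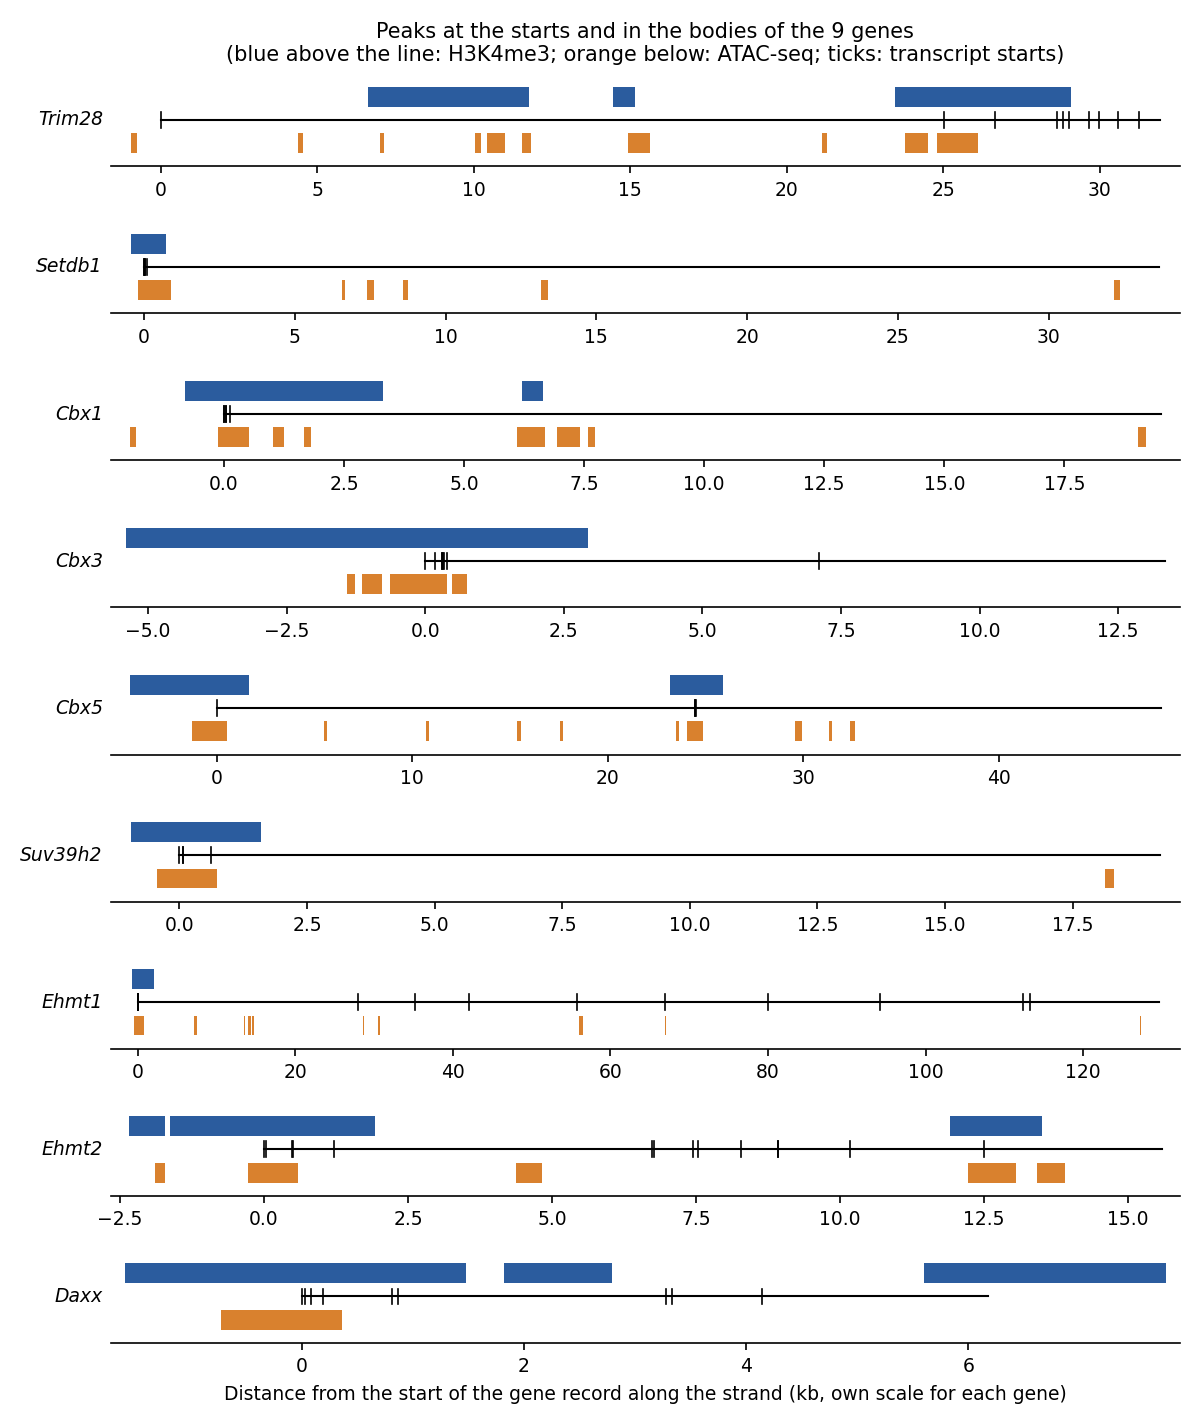
Peaks counted at the start and in the body of each gene along its strand, from the start of the gene record at 0, with H3K4me3 above the line, ATAC-seq below it and annotated transcript starts as ticks. Each gene has its own scale in Kb. Trim28 has 3 H3K4me3 peaks inside the record and none at its first base, and the long body of Ehmt1 has 9 ATAC-seq peaks and 0 H3K4me3 peaks.

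Beyond 2 Kb from the gene record start, 5 of the 9 genes had an H3K4me3 peak in the body, against 27.1% of protein-coding genes, and there were 7 such peaks in all. In Trim28 they were the coding promoter, a peak of 5137 bp with a fold enrichment of 40.0 over the start of Zbtb45, a zinc finger gene on the other strand, and a weak peak of 700 bp with a fold enrichment of 3.70, for which the nearest gene start was also that of Zbtb45, 3543 bp away. The Cbx5 peak was the internal promoter. In Cbx1 a peak of 434 bp with a fold enrichment of 5.04 lay 60 bp from the start of the processed pseudogene Gm11517. The Ehmt2 peak of 1598 bp with a fold enrichment of 5.55 covered the start of a retained-intron transcript of Ehmt2, and the nearest gene start was that of Slc44a4, 2487 bp away. In Daxx a peak of 2180 bp with a fold enrichment of 22.5 began inside the gene and covered the start of the neighbor Tapbp, which encodes the peptide-loading protein tapasin.

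With each annotated transcript start excluded in the same way, genes with an H3K4me3 peak in the body fell in number from 5 to 2 of 9, and the share over protein-coding genes fell from 27.1% to 19.2%. Of the 7 body peaks, 3 covered an annotated transcript start of the gene itself, in Trim28, Cbx5 and Ehmt2. Across the 9 genes GENCODE lists 76 transcript starts, of which 57 had an H3K4me3 peak within 2 Kb and 55 an ATAC-seq peak. Many of these starts lie a few bases apart under the same peak. No share over all annotated starts is given, so the counts cannot be read as high or low. The unmarked starts were mostly in Ehmt1, with 9 of 17, and Ehmt2, with 7 of 14. In Ehmt1 they include the start of 1 protein-coding transcript of the basic set at position 24891703, which had an ATAC-seq peak within 2 Kb but no H3K4me3 peak. All annotated starts of Setdb1, Cbx1, Cbx5 and Suv39h2 had both marks within 2 Kb.

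ATAC-seq peaks were found in the body of 7 of the 9 genes, against 61.6% of protein-coding genes, 40 peaks in all. Of the 40, 12 overlapped an H3K4me3 peak, and 7 of these were in the Trim28 gene record. The share of such overlaps over all genes is not given. Trim28 (at the gene record), Cbx5 and Ehmt1 had 9 each, Setdb1 5, Cbx1 4, Ehmt2 3 and Suv39h2 1. Cbx3 and Daxx had 0. Scaled to the length of the body, Ehmt1 had 0.705 peaks per 10 Kb over 127686 bp, against 2.28 in Cbx1 and 2.21 in Ehmt2, and the median over 13616 protein-coding genes with a marked start was 0.818. The 5 ATAC-seq peaks in the Setdb1 body were narrow, between 128 and 248 bp against a median of 261 bp over the ATAC-seq list, and none overlapped H3K4me3. In Ehmt1 the 9 peaks were between 154 and 433 bp.

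**Figure D4:**
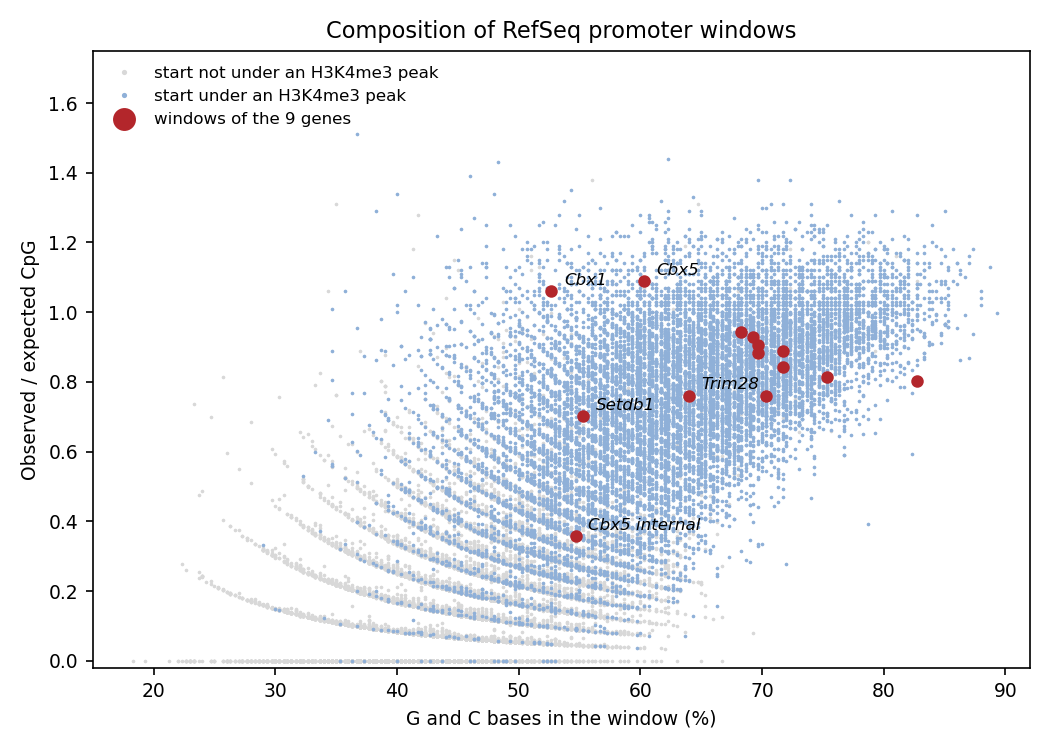
Observed over expected CpG against the percentage of G and C in RefSeq promoter windows of 300 bases (250 before and 50 after the start). Windows with the start under an H3K4me3 peak are in light blue, others in grey, and the 14 windows of the 9 genes in red. The window of the internal Cbx5 start is the lowest of the 14 in CpG, at 0.358.

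All 9 genes matched a RefSeq promoter window of GRCm38.p6, with 14 windows of 300 bases in all because Cbx3, Cbx5, Ehmt2 and Daxx have more than 1 and the 3 of Daxx overlap. Each of the 14 starts lay under an H3K4me3 peak, and 13 lay under an ATAC-seq peak, the exception being the second Cbx3 start. The median content of G and C was 69.5%, against 61.7% over 15654 windows with a marked start and 52.7% over all 32841 windows used. Observed over expected CpG had a median of 0.862, against 0.756 and 0.384. Cbx1 at 52.7%, the internal Cbx5 start at 54.7% and Setdb1 at 55.3% were the poorest in G and C, with observed over expected CpG of 1.06, 0.358 and 0.703. Low G and C thus came with a narrow peak in Setdb1 and with a wide one in Cbx1.

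The GC box bound by Sp and Klf factors, searched as GGGCGG on both strands, was in 13 of the 14 windows. The shares were 35.7% of all windows and 65.5% of those with a marked start. Each of the 9 genes had it in at least 1 window, but no share per gene is given for comparison. The windows of the 9 genes were also richer in G and C than marked windows, which was not accounted for. The CCAAT box of NF-Y, searched as CCAAT, was in 3 of the 14 windows, from Setdb1, Cbx5 and Daxx, against 37.4% of all windows and 36.5% of marked ones. The E-box CACGTG was in 3 of the 14 windows, from Cbx5 and Ehmt2 (7.15% of all and 10.0% of marked windows). The ETS word CCGGAAGT was in 3, all of them the overlapping windows of Daxx (3.89 and 7.33%). The CRE word TGACGTCA (1.79 and 3.05%) and the YY1 word AAGATGGC (2.75 and 3.86%) were in the 1 window of Suv39h2. The TATA box word TATAAA, in 13.6% of all and 6.23% of marked windows, and the NRF1 word GCATGCGC, in 2.71 and 5.01%, were in 0 of the 14, and at shares this low few or no matches in 14 windows say little. A word is a match of letters and not a bound site.

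**Figure D5:**
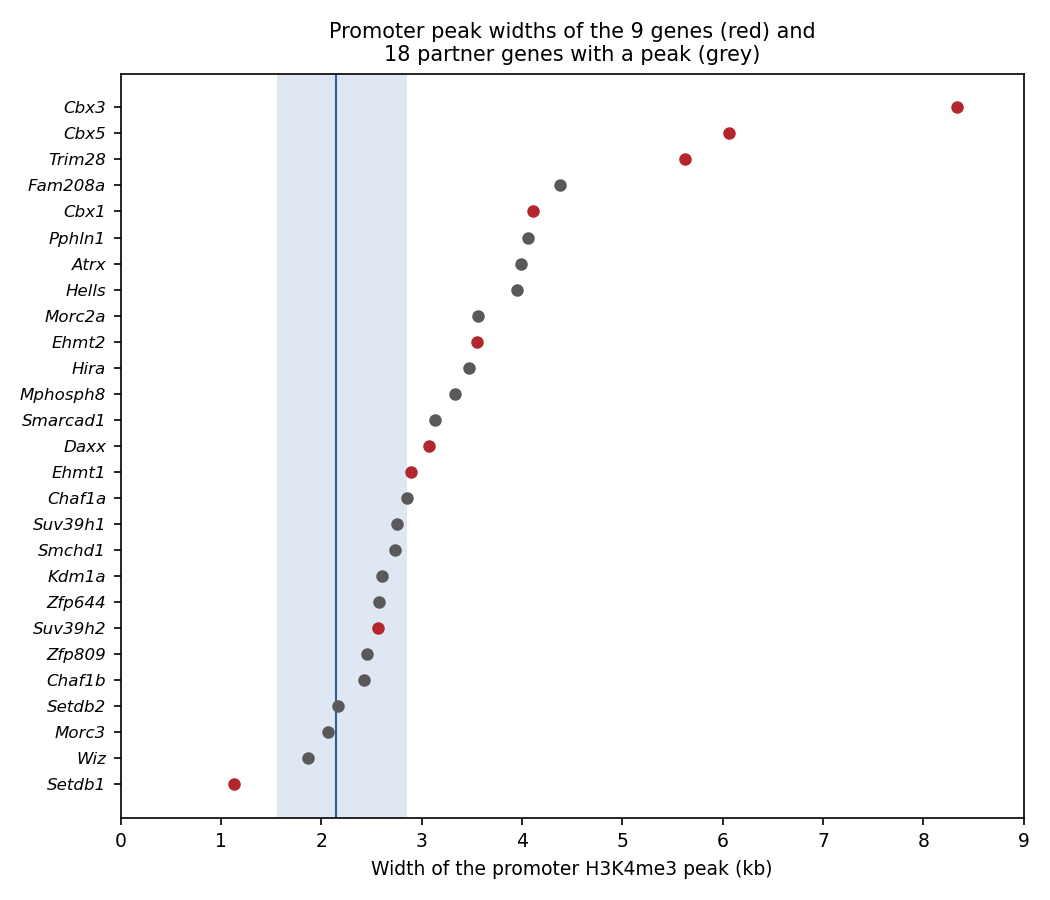
Widths of the promoter H3K4me3 peaks in Kb for the 9 genes (red, Trim28 at its coding start) and the 18 partner genes with a peak at the start of the gene record (grey), in order of width. The blue line and band give the median of 2147 bp and the quartiles of 1562 and 2849 bp over protein-coding promoters, and the 3 widest and the narrowest peaks are all from the 9 genes.

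A list of 20 partner genes holds the paralogs, cofactors and histone chaperones that work with these proteins. Of these, 18 were marked by both assays at the gene record start, against 65.9% of all protein-coding genes. Their median H3K4me3 width was 2805 bp and their median fold enrichment 37.9, against 2147 bp and 30.3 over protein-coding promoter peaks. The exceptions with neither peak were Atf7ip, the SETDB1 cofactor, and Cdyl, a chromodomain corepressor, which had 4 and 3 H3K4me3 peaks in the body. The widest were Fam208a, which encodes the HUSH subunit TASOR, at 4380 bp, Pphln1, which encodes the HUSH subunit periphilin, at 4055 bp, and Atrx, the partner of DAXX, at 3987 bp. The narrowest were Wiz, a zinc finger partner of G9a and GLP, at 1867 bp, Morc3 at 2069 bp and Setdb2, a paralog of Setdb1, at 2169 bp. Among the 27 genes of both lists with a peak, Cbx3, Cbx5 and Trim28 were wider than each partner gene with a peak, and Setdb1 was narrower than each. Trim28 enters here at its coding start, whereas partner genes were measured only at the gene record, so Atf7ip and Cdyl have no width. Suv39h1, the X-linked paralog of Suv39h2, had a peak of 2752 bp with a fold enrichment of 28.8, close in width to the 2564 bp of Suv39h2 and lower than its fold enrichment of 42.9.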

How the data were processed

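The H3K4me3 list was made by the authors with the ENCODE uniform pipeline for histone marks at default parameters, and its aligner and threshold are not given in the sources used here. Its deposited columns hold positions, a fold enrichment (a ratio), a −log10 q and a summit position. Per the submitters' processing notes and the paper's methods, reads for the ATAC-seq list were aligned with Bowtie 1.1.2 and handled with SAMtools, and their ends were shifted for the transposase. MACS2 (version 2.1.1.20160309) called peaks at a lenient p-value cutoff that the paper gives. With bedtools (version 2.27.1) the authors kept pooled peaks found in both replicates, as deposited positions with no other score. The build is mm10 per the labels. PLAC-seq and input samples were not used here.

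A peak was at a start when it shared 1 or more bases with the 2 Kb on either side of the 5′ end of the GENCODE M21 gene record, and the promoter peak was the one that covers the start or, failing that, the nearest. The body was the rest of the record, and a peak at the start was not counted again. Positions are 1-based. Trim28 is also described at its coding start, a choice made after seeing the data. Upstream runs exclude exons of protein-coding GENCODE transcripts and curated RefSeq exons, and promoter windows are from RefSeq. Named genes were the 9 genes, genes starting in their promoter peaks or nearest to their body peaks, and the partner genes with no peak or the 3 widest and 3 narrowest. The genes and lists were chosen with earlier results of these data known. Python 3.11.15, NumPy 2.4.6 and SciPy 1.17.1 were used, and the overlaps were tested on simulated data and checked with bedtools 2.31.1. Alternatives were windows of 1 and 5 Kb, all transcript starts, peak midpoints, stricter or joined peaks and other sets of genes.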

Additional observations from a re-analysis of the deposited data

How the results depend on the processing

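No paired analysis was possible because each list joins both replicates, and for the same reason no replicate could be left out. The counts of the 9 genes with an H3K4me3 peak (8 or 9) or an ATAC-seq peak (8 or 9) at the start stayed within 1.5 times the reported counts under each alternative run. The median width moved from 3313 bp to 3553 bp with every transcript start or with the first coding start, which was added after seeing the data, and to 5424 bp with peaks under 1 Kb apart joined. The median percentile of width moved from 84.1 to 83.9 within 1 Kb and with the peak of highest fold enrichment, 84.6 within 5 Kb, 87.5 with every transcript start, 84.8 with peak midpoints, 84.0 with a −log10 q of at least 5, 93.1 with joined peaks and 87.8 at the first coding start. The count of genes with an H3K4me3 peak in the body fell from 5 to 2 with every transcript start, and the ATAC-seq peaks in the bodies from 40 to 17 with the widest 50% of that list.

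The shares over all protein-coding genes moved beyond their counting intervals as follows. The share with H3K4me3 at the start was 65.2% within 1 Kb, 69.3% within 5 Kb, 69.6% with every transcript start, 65.1% with midpoints, 67.7% for autosomal genes and 62.1% for genes with no other coding start within 2 Kb. The share with ATAC-seq at the start was, in the same order, 71.0, 81.3, 77.9, 73.9, 75.9 and 71.2%, and 69.9% with the widest 50% of the list. The share with H3K4me3 in the body was 28.8% within 1 Kb, 22.5% within 5 Kb, 19.2% with every transcript start, 25.7% with a −log10 q of at least 5 and 27.9% for autosomal genes. The cause of these shifts beyond the change of rule was not tested. Without counts or values per replicate, small differences between genes cannot be judged, and a gap between 2 peaks may depend on the caller's threshold.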
